A study of Mus musculus with 12 samples.

Results

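The mitochondrial ribosomal protein genes of mouse were taken as every row of the count table whose symbol is Mrpl or Mrps followed by a number, with pseudogene symbols left out, of which the table holds 0. This gave 76 genes of 23336, of which 47 have large-subunit (Mrpl) and 29 small-subunit (Mrps) symbols. They were measured by RNA-seq in B16, an established mouse melanoma cell line. The cells had been given Cas9 transiently, with Adar sgRNA 1, which targets Adar, or with control sgRNA 5, which targets no gene, and subclones were grown from them. They are called Adar-null and control cells here. Both received interferon-beta (IFNb, 1000 U per mL) or vehicle, which was PBS with BSA, for 36 h. This makes 4 groups of 3 libraries: Adar-null with IFNb, Adar-null with vehicle, control with IFNb and control with vehicle. With 1 guide per genotype and subcloned cells, effects of the genotype and of the subclone cannot be told apart. Whether the 3 libraries of a group stem from different cultures is not labelled, so p-values here cover library-to-library spread, possibly technical.

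The mitochondrial ribosome translates the few proteins encoded by mitochondrial DNA, which are core subunits of the respiratory chain and of ATP synthase. Its RNAs come from mitochondrial DNA, whereas its proteins are encoded in the nucleus, made in the cytosol and imported. Some of these proteins have bacterial counterparts and line the catalytic and decoding sites, and many others are specific to mitochondria. Adar encodes an adenosine deaminase that edits double-stranded RNA, and IFNb is a type I interferon that signals through the IFNAR receptor and JAK-STAT proteins. A few symbols do not match the present view of where the protein sits. The Mrps18a and Mrps30 products lie in the large subunit, and the Mrps36 product is now counted as a subunit of 2-oxoglutarate dehydrogenase.

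The 12 libraries held 5375649 to 7153480 counts, and the 76 genes together took 0.231% to 0.250% of them. Of the 76 genes, 74 passed the filter on low counts and were tested among 11561 genes. Of these 74, 46 are Mrpl and 28 are Mrps genes. The targeted gene, Adar, was at 408 ± 21.2 CPM in IFNb-treated Adar-null cells, 59.5 ± 5.26 CPM in vehicle-treated Adar-null cells, 384 ± 7.47 CPM in IFNb-treated control cells and 72.2 ± 2.05 CPM in vehicle-treated control cells (SD, n = 3 each). A small deletion made by Cas9 need not lower the count of a gene, so these values do not test the deletion. CPM are counts per 1000000 after TMM scaling, which sets libraries level on the bulk of their genes. All 7 melanocyte markers were detected, at a summed level of 10432 to 11147 CPM in IFNb-treated Adar-null cells, 15254 to 15440 CPM in vehicle-treated Adar-null cells, 13362 to 13660 CPM in IFNb-treated control cells and 15641 to 16469 CPM in vehicle-treated control cells. The 5 leukocyte markers had 12 counts in all libraries together, the 3 endothelial markers 32, the 3 epithelial markers 186, with Epcam and Krt8 at 0, and the 3 fibroblast markers 1193. Of the 32 endothelial counts, 23 were in Adar-null cells with IFNb. The part of the melanocyte and other marker levels in the results below was not tested.

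Set against exon length, the 76 genes were expressed above the middle of the transcriptome. Their median was 18.6 CPM per kilobase of exon, against 10.1 for all 11062 tested protein-coding genes. The Mrpl genes had a median of 20.6 and the Mrps genes of 14.1 CPM per kilobase. The highest levels were those of Mrpl53, Mrpl13 and Mrpl33, at 60.3, 57.9 and 55.7 CPM per kilobase. All of the exon bases of Mrpl53 are shared with another annotated gene on the same strand, Gm42688, so its level is uncertain. Mrpl13 shares 27.0% of its exon bases with Mtbp on the other strand, and Mrpl33 shares 22.4% with Gm43809 on the same strand, so their levels may hold reads of these genes. The lowest were Mrps36, Mrpl23 and Mrpl48, at 0.315, 0.554 and 1.03 CPM per kilobase. Mrpl23, which lies at the exit of the peptide tunnel, and Mrps36 failed the filter. Mrpl23 had 11, 12, 6 and 10 counts in all in IFNb-treated Adar-null, vehicle-treated Adar-null, IFNb-treated control and vehicle-treated control cells. Mrps36 had 6, 4, 3 and 3 counts in the same groups. A difference between groups was not detectable for either at this depth. Lengths are the union of exons in GENCODE M21, which need not be the annotation the authors counted on, and reads shared with processed copies of a gene may have been dropped or divided in a way that the sources used here do not give. The genes lie on 17 chromosomes, with 10 on chromosome 11 and 8 on chromosome 17.

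**Figure D1:**
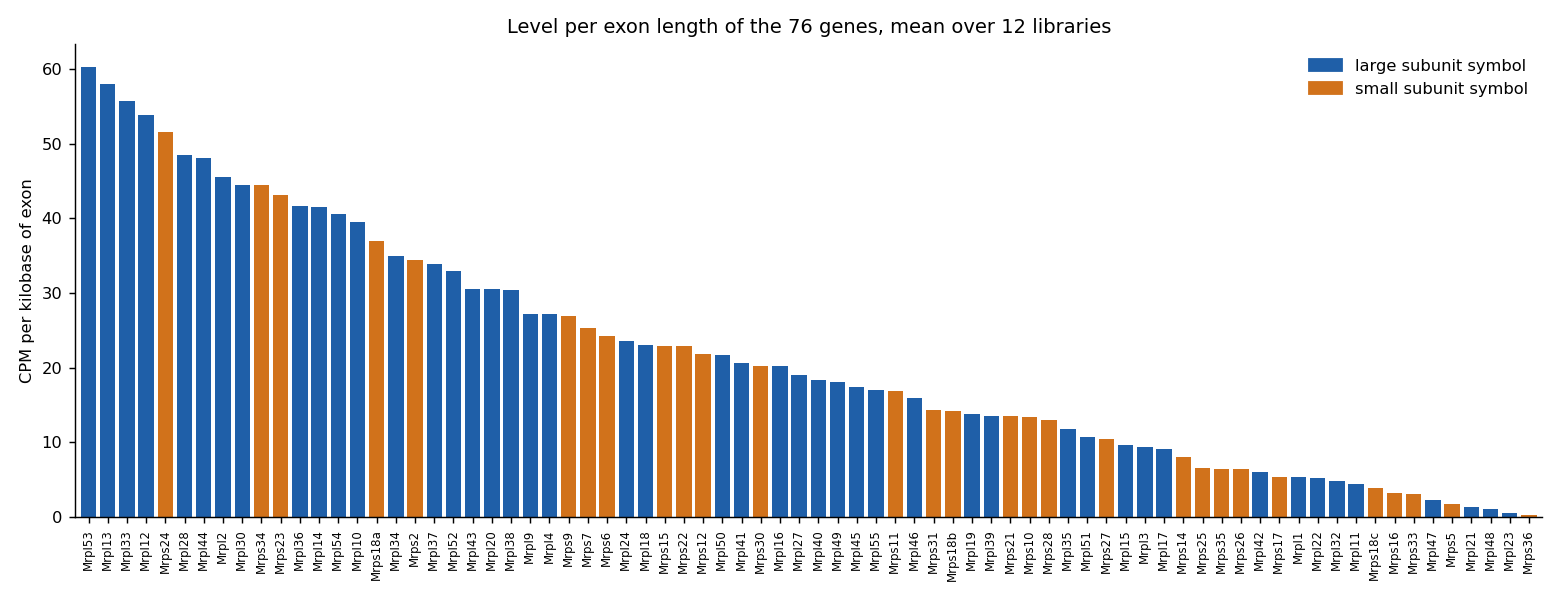
Mean level over 12 libraries (CPM per kilobase of union exon, y axis from 0) of each of the 76 genes, ordered from high to low, with large and small subunit symbols in different colours. Levels run from 60.3 for Mrpl53 down to 0.315 for Mrps36, and the low end holds genes of both subunits.

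Promoters of these genes are known for binding sites of NRF1, of ETS factors such as GABP, and of YY1, factors that act on many nuclear genes for mitochondrial proteins. RefSeq promoter windows of the GRCm38.p6 assembly, from 250 bases before to 50 bases after the start, were found for 67 of the 76 genes. Both strands were searched for the NRF1 consensus, CCGGAAG (ETS) and AAGATGG (YY1). None of the 3 contains another. Some genes, such as Mrpl48, have several windows, and a gene was counted if any of its windows matched. The NRF1 consensus was found for 12 of the 67 genes (17.9%), against 12.2% of the 8309 tested genes with a window and 5.19% of all 27025 genes with one. The ETS letters were found for 24 (35.8%), against 20.95% of tested and 9.93% of all genes. The YY1 letters were found for 13 (19.4%), against 8.51% of tested and 7.28% of all genes. At least 1 of the 3 was found for 41 genes (61.2%), against 36.2% of tested and 20.03% of all genes. These shares describe the letters only and are not evidence of binding. The 250 bases before the start are shown for 5 genes whose responses to IFNb are described below: Mrpl18 and Mrpl12, which fell in Adar-null and rose in control cells; Mrpl24, which rose in Adar-null and fell in control cells; Mrpl9, which fell in control cells; and Mrps18b, which rose in both. Capitals mark a match to one of the 3 motifs, and each sequence runs 5′ to 3′ towards the start.
Mrpl18: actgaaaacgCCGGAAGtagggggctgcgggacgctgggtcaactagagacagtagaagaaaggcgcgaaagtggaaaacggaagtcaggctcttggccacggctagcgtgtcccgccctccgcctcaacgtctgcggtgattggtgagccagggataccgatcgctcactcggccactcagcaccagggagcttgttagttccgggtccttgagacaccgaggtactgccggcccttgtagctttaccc
Mrpl24: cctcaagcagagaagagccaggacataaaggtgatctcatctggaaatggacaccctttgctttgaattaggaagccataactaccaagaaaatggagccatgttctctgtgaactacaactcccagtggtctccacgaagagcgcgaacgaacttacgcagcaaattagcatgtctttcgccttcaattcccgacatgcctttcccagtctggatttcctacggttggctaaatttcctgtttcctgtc
Mrpl9: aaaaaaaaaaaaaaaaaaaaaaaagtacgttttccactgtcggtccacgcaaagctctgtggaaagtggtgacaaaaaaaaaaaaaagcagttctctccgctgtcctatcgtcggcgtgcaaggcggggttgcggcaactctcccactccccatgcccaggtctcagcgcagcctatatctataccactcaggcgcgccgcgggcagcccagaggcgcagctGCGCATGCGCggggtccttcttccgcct
Mrps18b: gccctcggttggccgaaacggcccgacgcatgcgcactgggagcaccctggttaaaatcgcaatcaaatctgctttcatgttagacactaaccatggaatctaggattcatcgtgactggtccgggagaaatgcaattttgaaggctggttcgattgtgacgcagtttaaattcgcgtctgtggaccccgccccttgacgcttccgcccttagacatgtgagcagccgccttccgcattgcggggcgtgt
Mrpl12: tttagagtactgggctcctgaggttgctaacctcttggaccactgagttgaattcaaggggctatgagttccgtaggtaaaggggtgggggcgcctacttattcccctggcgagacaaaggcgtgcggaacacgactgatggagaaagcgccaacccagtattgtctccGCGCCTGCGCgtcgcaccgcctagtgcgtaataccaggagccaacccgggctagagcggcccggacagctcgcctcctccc
They lie at chr17:12916092-12916341 (minus strand), chr3:87919294-87919543 (plus strand), chr3:94443086-94443335 (plus strand), chr17:35916441-35916690 (minus strand) and chr11:120484387-120484636 (plus strand) of GRCm38.p6. The capitals are an ETS match 240 to 234 bases before the start of Mrpl18 and NRF1 matches 28 to 19 bases before the start of Mrpl9 and 81 to 72 bases before that of Mrpl12. The window of Mrpl24 holds none of the 3 motifs, and that of Mrps18b holds an ETS match only after the start, from base 43 to base 49. Mrpl9 and Mrpl12 both carry the NRF1 consensus, and with IFNb in control cells the first fell and the second rose (values below). Whether a motif goes with the direction of the response was not tested over the genes that carry it.

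Summed over genes, the levels differed little between the 4 groups. The Mrpl genes summed to 1597, 1652 and 1685 CPM in IFNb-treated Adar-null cells, 1623, 1662 and 1613 CPM in vehicle-treated Adar-null cells, 1579, 1572 and 1574 CPM in IFNb-treated control cells and 1637, 1590 and 1623 CPM in vehicle-treated control cells. The control libraries with IFNb lay below the other 9, by a small margin. The Mrps genes summed to 814 ± 28.2 CPM in IFNb-treated Adar-null cells, 783 ± 12.003 CPM in vehicle-treated Adar-null cells, 792 ± 13.99 CPM in IFNb-treated control cells and 778 ± 9.01 CPM in vehicle-treated control cells (SD, n = 3 each). These ranges overlap except for Adar-null cells with IFNb and control cells with vehicle. The ratio of the 2 sums was 2.02 ± 0.0288 in Adar-null cells with IFNb, 2.09 ± 0.0131 in Adar-null cells with vehicle, 1.99 ± 0.0310 in control cells with IFNb and 2.08 ± 0.0125 in control cells with vehicle. In each genotype all 3 IFNb libraries had a lower ratio than all 3 vehicle libraries. The direction of 3 of the 4 sums with IFNb depended on the scaling, and the Mrpl sum in control cells was lower with IFNb under each of the 4 scalings run. With library size alone, without TMM, the Mrpl genes summed to 1588 ± 16.7 CPM in IFNb-treated Adar-null cells, against 1680 ± 5.40 CPM with vehicle, and to 1539 ± 8.002 CPM in IFNb-treated control cells, against 1665 ± 31.7 CPM with vehicle (SD, n = 3 each). The Mrps sums were then also lower with IFNb in both genotypes, at 786 ± 10.3 CPM against 805 ± 4.40 CPM in Adar-null cells and 773 ± 8.06 CPM against 801 ± 11.4 CPM in control cells. Rn45s, the precursor of cytosolic ribosomal RNA, took 25.8% to 28.5% of counts in Adar-null cells with IFNb, 21.1% to 22.9% in Adar-null cells with vehicle, 24.9% to 25.3% in control cells with IFNb and 21.5% to 22.4% in control cells with vehicle, and its part in this was not tested.

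**Figure D2:**
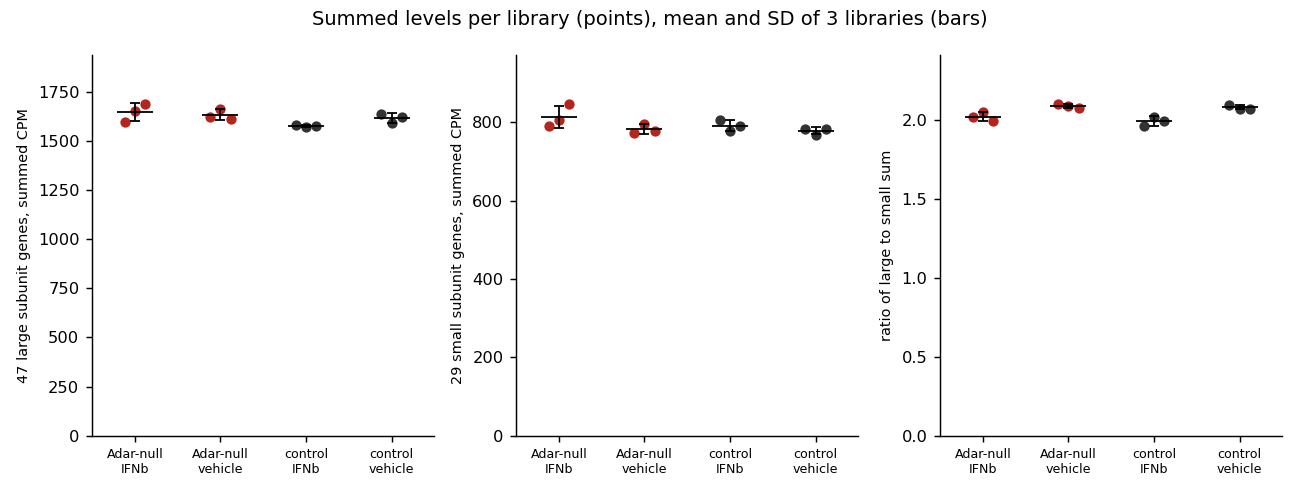
Summed CPM of the large-subunit genes, of the small-subunit genes and their ratio (y axes from 0) in each library, by group, with the mean and SD of 3 libraries. The sums differ little between groups, and the ratio is near 2.02 and 1.99 in the IFNb groups of Adar-null and control cells and near 2.09 and 2.08 in their vehicle groups.

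Individual genes moved much more than these sums, and in both directions. Calls were made where edgeR's quasi-likelihood test, with Benjamini-Hochberg adjustment over all 11561 genes, gave an adjusted p under 0.05. Under vehicle 0 of 74 were higher, against 2.47% of all genes tested, and 1 was lower (1.35%, against 4.05%) in Adar-null than in control cells, and 6.51% of all genes passed in either direction. At an unadjusted p under 0.05 there were 4 of 74, against 2255 of all 11561 genes, and with DESeq2 the number called was 0, against 324 of all genes. With IFNb 23 were higher in Adar-null than in control cells (31.1%, against 36.4% of all genes) and 19 were lower (25.7%, against 36.2%), 56.8% against 72.6% in either direction. IFNb set against vehicle in Adar-null cells gave 20 higher (27.0%, against 36.6% of all genes) and 20 lower (27.0%, against 35.7%), 54.1% against 72.3% in either direction. In control cells 17 were higher (23.0%, against 26.5% of all genes) and 19 lower (25.7%, against 26.5%), 48.6% against 53% in either direction. The interaction, the difference between the log2 responses to IFNb of the Adar-null and the control cells, passed for 13 genes upwards (17.6%, against 28.6% of all genes) and 16 downwards (21.6%, against 30.7%), 39.2% against 59.3% in either direction. The median log2 fold change of the 74 genes was 0.03 under vehicle, 0.02 between genotypes with IFNb, -0.02 for IFNb in Adar-null cells and 0.01 for IFNb in control cells, and the medians of all genes lay within 0.02 of 0 in each comparison.

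The middle gene of the 74 changed less than the middle gene of the transcriptome in Adar-null cells, and by about the same amount in control cells. With IFNb in Adar-null cells the median size of the log2 change was 0.25, against 0.47 for all genes tested. In control cells it was 0.27 for both. Calls beyond 1.5-fold were made for 17 of the 74 genes with IFNb in Adar-null cells (23.0%, against 39.3% of all genes), for 4 in control cells (5.41%, against 17.9%), for 12 between genotypes with IFNb (16.2%, against 39.5%), for 10 in the interaction (against 36% of all genes) and for 0 under vehicle (against 1.06%). Between genotypes with IFNb the median size was 0.25 for the 74 genes and 0.46 for all genes. Calls in both directions were made among the Mrpl and the Mrps genes. With IFNb in Adar-null cells 13 Mrpl genes rose and 13 fell of 46 (28.3% each). For the Mrps genes 7 rose and 7 fell of 28 (25% each), against 36.6% and 35.7% of all genes. In control cells 9 Mrpl genes rose (19.6%) and 12 fell (26.1%). There 8 Mrps genes rose (28.6%) and 7 fell (25%), against 26.5% of all genes each. Between genotypes with IFNb 14 Mrpl genes were higher (30.4%) and 11 lower (23.9%) in Adar-null cells. For the Mrps genes these were 9 (32.1%) and 8 (28.6%), against 36.4% and 36.2% of all genes. RNA-seq of bulk cultures cannot tell less RNA per cell from fewer cells that make it.

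**Figure D3:**
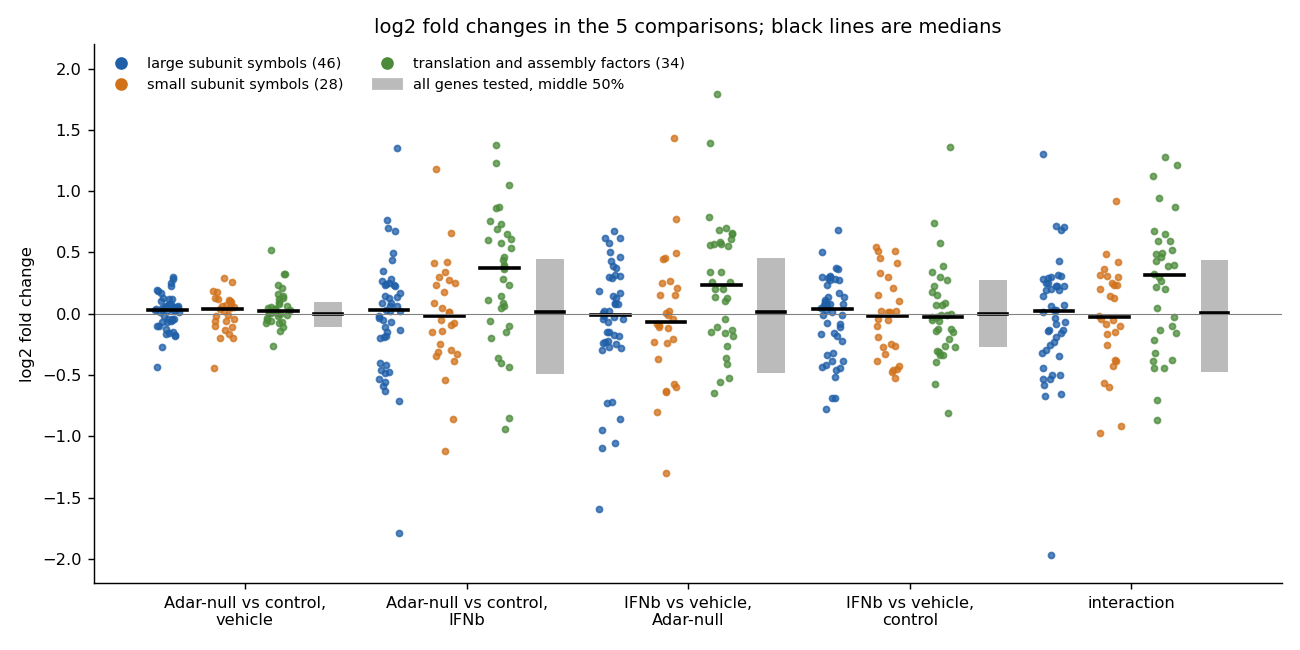
Log2 fold changes (y axis) of the 46 tested large-subunit genes, the 28 tested small-subunit genes and 34 listed factors in the 5 comparisons. The factors are those of mitochondrial translation and assembly, with some of mitochondrial transcription and messenger RNA. Each point is a gene, black lines are medians and the grey band is the middle 50% of all 11561 genes. The medians of the subunit genes lie near 0, and that of the factors lies at 0.37 between genotypes with IFNb and at 0.31 in the interaction.

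Under vehicle the only gene called was Mrpl1, whose product forms the mobile stalk beside the exit site for transfer RNA. Mrpl1 had 22.2, 23.2 and 19.9 CPM in IFNb-treated Adar-null cells, 19.4, 17.8 and 21.2 CPM in vehicle-treated Adar-null cells, 25.99, 24.6 and 23.4 CPM in IFNb-treated control cells and 27.6, 23.7 and 27.1 CPM in vehicle-treated control cells. The 3 Adar-null vehicle libraries lay below the 3 control vehicle libraries, and with IFNb the groups did not overlap either. The log2 fold change of Adar-null over control cells was -0.43 ± 0.11 under vehicle (adjusted p = 0.00787, edgeR) and -0.18 ± 0.11 with IFNb (adjusted p = 0.137), which did not pass. The call under vehicle ended without either Adar-null vehicle replicate 2 or control vehicle replicate 1 (adjusted p up to 0.0914), and with DESeq2 (adjusted p up to 0.0625). For the other 73 genes the log2 difference under vehicle lay between -0.44 (Mrps16) and 0.30 (Mrpl22), and 0 of them differed by more than 1.5-fold.

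The response to IFNb sorted the 74 genes into several patterns. In both genotypes 9 rose (12.2%, against 14.9% of all genes) and 8 fell (10.8%, against 14.5%). There were 2 that rose in Adar-null and fell in control cells (2.70%, against 5.91%) and 3 that fell in Adar-null and rose in control cells (4.05%, against 6.44%). In Adar-null cells 9 rose (12.2%, against 15.8% of all genes) and 9 fell (12.2%, against 14.8%) without a call in control cells. In control cells 5 rose (6.76%, against 5.16%) and 9 fell (12.2%, against 6.16%) without a call in Adar-null cells, and 20 were called in neither (27.0%, against 16.3%). A gene called in only one genotype is said to differ between genotypes only where its interaction passed.

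**Figure D4:**
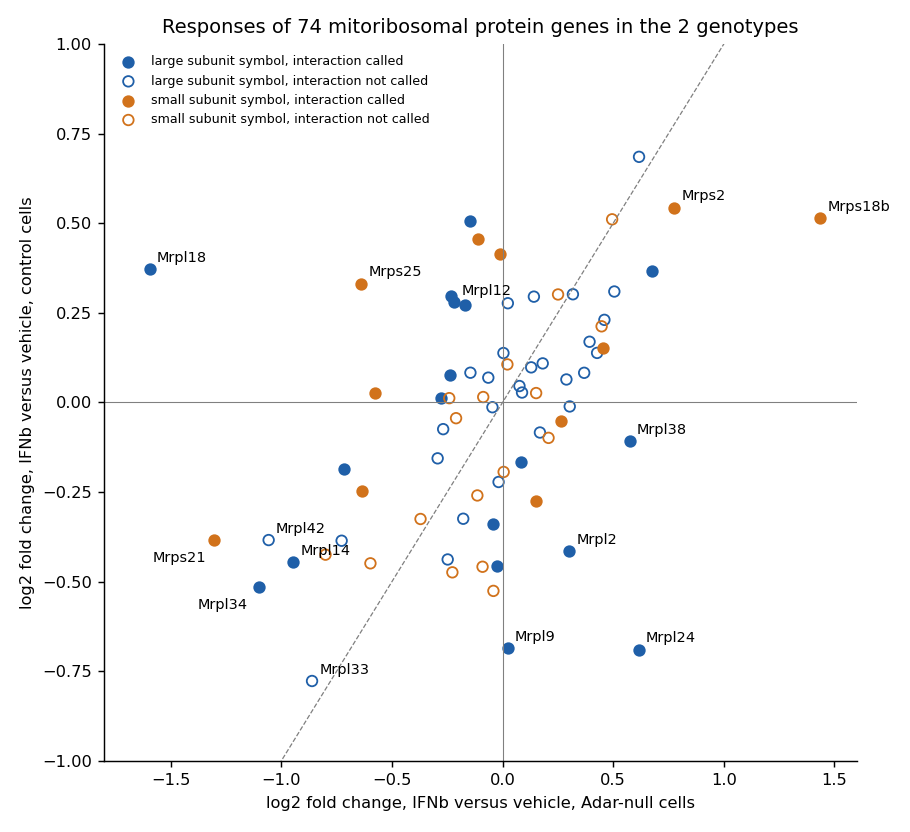
Log2 fold change of IFNb over vehicle in Adar-null cells (x axis) against that in control cells (y axis) for the 74 tested genes; filled points passed the interaction test, and the dashed line marks equal responses (the axes have different scales). Mrpl18 and Mrps25 lie at upper left, Mrpl24 and Mrpl2 at lower right, and Mrps18b at far right, at 1.44 in Adar-null and 0.51 in control cells.

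The 5 genes with opposite calls were Mrpl18, Mrpl24, Mrpl2, Mrps25 and Mrpl12. Mrpl18 encodes a protein of the central protuberance of the large subunit, and its human counterpart has been reported to act in the import of 5S ribosomal RNA. Mrpl18 had 9.28, 12.03 and 11.5 CPM in IFNb-treated Adar-null cells, 35.98, 33.1 and 31.2 CPM in vehicle-treated Adar-null cells, 38.5, 37.2 and 38.9 CPM in IFNb-treated control cells and 31.3, 29.5 and 27.6 CPM in vehicle-treated control cells. The Adar-null libraries with IFNb lay far below the other 9, and the control libraries with IFNb lay above all control vehicle libraries. With IFNb Mrpl18 fell 3.02-fold in Adar-null cells (log2 change -1.60 ± 0.13, adjusted p = 2.89e-24, edgeR) and rose in control cells (0.37 ± 0.10, adjusted p = 0.000512). The interaction was -1.97 ± 0.16 (adjusted p = 1.28e-22), the largest in size among the 74 genes. With IFNb the gene was 3.45-fold lower in Adar-null than in control cells.

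Mrpl24 encodes a protein at the exit of the peptide tunnel, and it showed the opposite picture. Mrpl24 had 57.004, 55.3 and 52.4 CPM in IFNb-treated Adar-null cells, 37.9, 32.996 and 37.1 CPM in vehicle-treated Adar-null cells, 22.3, 22.02 and 20.3 CPM in IFNb-treated control cells and 32.3, 33.5 and 38.5 CPM in vehicle-treated control cells. The Adar-null libraries with IFNb were the highest 3 of the 12 and the control libraries with IFNb the lowest 3, while the vehicle groups overlapped. The response was 0.61 ± 0.08 in Adar-null cells (adjusted p = 1.04e-10, edgeR) and -0.69 ± 0.10 in control cells (adjusted p = 3.19e-09), with an interaction of 1.30 ± 0.13 (adjusted p = 3.73e-16). With IFNb it was 2.55-fold higher in Adar-null than in control cells. Exons of Rrnad1 on the other strand cover 38.2% of its exon bases. Rrnad1 itself rose in Adar-null cells (0.77 ± 0.13, adjusted p = 5.87e-08) and had a response of 0.21 ± 0.16 in control cells (adjusted p = 0.256), where it did not pass. The strand setting of the counting is not given in the sources used here, so reads of the 2 genes over the shared bases may not be told apart.

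Mrpl2, which sits close to the peptidyl transferase centre, followed the same course as Mrpl24 at a smaller size. Mrpl2 had 57.004, 60.7 and 54.9 CPM in IFNb-treated Adar-null cells, 47.8, 44.04 and 48.8 CPM in vehicle-treated Adar-null cells, 34.4, 36.5 and 37.5 CPM in IFNb-treated control cells and 45.2, 46.3 and 53.5 CPM in vehicle-treated control cells. Again the Adar-null libraries with IFNb lay above all others, the control libraries with IFNb below all others, and the vehicle groups overlapped. The response was 0.30 ± 0.08 in Adar-null cells (adjusted p = 0.000272, edgeR) and -0.42 ± 0.08 in control cells (adjusted p = 1.07e-05), and the interaction was 0.72 ± 0.11 (adjusted p = 2.68e-08). No annotated exon overlaps those of Mrpl2.

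Mrps25 is a mitochondria-specific protein of the small subunit. Mrps25 had 27.3, 28.4 and 26.6 CPM in IFNb-treated Adar-null cells, 40.4, 46.9 and 40.1 CPM in vehicle-treated Adar-null cells, 51.8, 51.1 and 46.8 CPM in IFNb-treated control cells and 39.7, 39.1 and 40.1 CPM in vehicle-treated control cells. The Adar-null libraries with IFNb were the lowest 3, and the control libraries with IFNb lay above those with vehicle. The response was -0.64 ± 0.09 in Adar-null cells (adjusted p = 4.7e-10, edgeR) and 0.33 ± 0.08 in control cells (adjusted p = 0.000345), with an interaction of -0.97 ± 0.12 (adjusted p = 1.25e-11). Nr2c2, on the other strand, shares 58.2% of the exon bases of Mrps25. Its response was 0.06 ± 0.06 in Adar-null cells (adjusted p = 0.294, edgeR), which did not pass. In control cells it fell (-0.15 ± 0.06, adjusted p = 0.0175). Nr2c2 had means of 135 CPM with IFNb and 130 CPM with vehicle in Adar-null cells, and of 108 and 120 CPM in control cells. Reads of Mrps25 and Nr2c2 over the shared bases may not be told apart.

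Mrpl12 forms the stalk that contacts translation factors, and its human counterpart has been reported to bind the mitochondrial RNA polymerase. Mrpl12 had 62.7, 57.3 and 65.5 CPM in IFNb-treated Adar-null cells, 64.9, 79.9 and 69.3 CPM in vehicle-treated Adar-null cells, 80.5, 82.9 and 83.4 CPM in IFNb-treated control cells and 70.6, 67.6 and 65.2 CPM in vehicle-treated control cells. The control libraries with IFNb were the highest 3, whereas the Adar-null libraries with IFNb overlapped those of both vehicle groups. The response was -0.22 ± 0.07 in Adar-null cells (adjusted p = 0.00341, edgeR) and 0.28 ± 0.07 in control cells (adjusted p = 0.000213). The call in Adar-null cells ended without either Adar-null IFNb replicate 2 or Adar-null vehicle replicate 2 (adjusted p up to 0.163). The interaction, -0.50 ± 0.10 (adjusted p = 3.96e-06), passed in each of the 20 alternative settings.

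**Figure D5:**
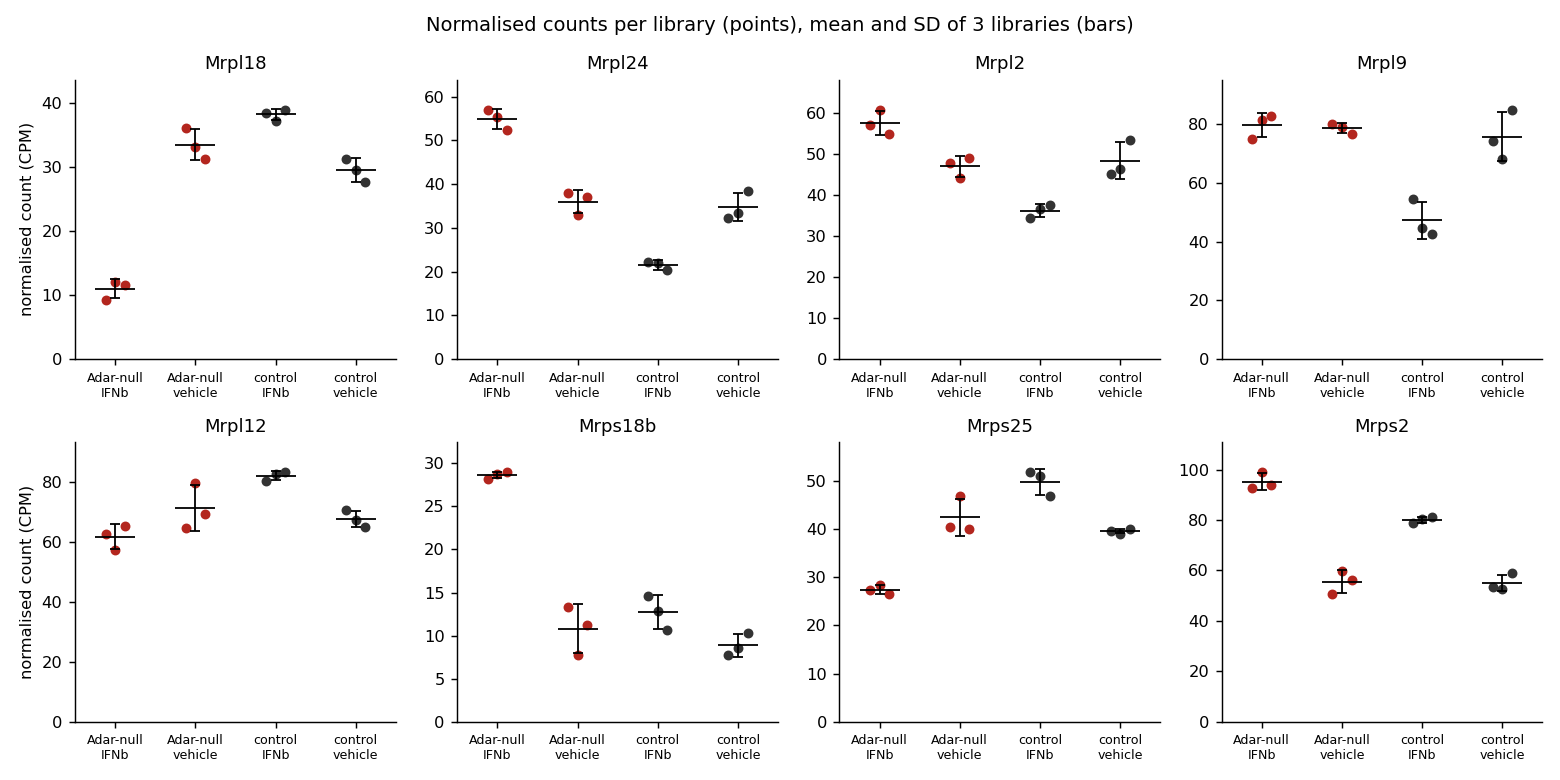
Normalised counts (CPM, y axes from 0) in each library for Mrpl18, Mrpl24, Mrpl2, Mrpl9, Mrpl12, Mrps18b, Mrps25 and Mrps2, by group, with the mean and SD of 3 libraries. Mrpl18 and Mrps25 are lowest in Adar-null cells with IFNb, at means of 10.95 and 27.4 CPM, and Mrpl24 and Mrps18b are highest there, at 54.9 and 28.6 CPM.

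Other proteins of the catalytic core and the tunnel changed in either direction. Mrpl3, which also lies near the peptidyl transferase centre, fell with IFNb in control cells (-0.34 ± 0.08, adjusted p = 0.000137, edgeR) and did not pass in Adar-null cells (-0.04 ± 0.08). Mrpl4, of the tunnel wall, fell in both, with log2 changes of -0.25 ± 0.09 in Adar-null (adjusted p = 0.00997) and -0.44 ± 0.09 in control cells (adjusted p = 2.92e-05). Mrpl45, which anchors the mitoribosome to the inner membrane, rose in Adar-null cells (0.39 ± 0.08, adjusted p = 1.32e-05) and did not pass in control cells (0.17 ± 0.09), except without control vehicle replicate 3 (adjusted p = 0.0289). Neither Mrpl4 (0.19 ± 0.13) nor Mrpl45 (0.22 ± 0.12) passed the interaction test, which Mrpl45 did pass without control vehicle replicate 1 (adjusted p = 0.0325). Mrpl15, a core protein with a bacterial counterpart, rose in both genotypes, to 60.9 ± 2.17 CPM in IFNb-treated Adar-null cells, against 42.8 ± 1.98 CPM with vehicle, and to 55.8 ± 2.98 CPM in IFNb-treated control cells, against 44.9 ± 1.88 CPM with vehicle (SD, n = 3 each).

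Near the stalks, Mrpl9, which binds next to the Mrpl1 stalk, responded in control cells. Mrpl9 had 75.2, 81.5 and 82.7 CPM in IFNb-treated Adar-null cells, 80.005, 79.2 and 76.8 CPM in vehicle-treated Adar-null cells, 54.5, 44.8 and 42.8 CPM in IFNb-treated control cells and 74.3, 68.3 and 85.1 CPM in vehicle-treated control cells. The control libraries with IFNb lay below all others, and the other groups overlapped. The response was -0.69 ± 0.08 in control cells (adjusted p = 1.34e-13, edgeR) and 0.02 ± 0.07 in Adar-null cells (adjusted p = 0.77), and the interaction was 0.71 ± 0.10 (adjusted p = 1.89e-09). Oaz3, on the other strand, shares 6.06% of its exon bases and did not pass with IFNb in Adar-null (-0.44 ± 0.27, adjusted p = 0.131) or control cells (-0.36 ± 0.26, adjusted p = 0.238). Mrpl11, at the stalk base, was lower in Adar-null than in control cells with IFNb (-0.71 ± 0.16, adjusted p = 6.15e-05), while Mrpl10, which holds the stalk, differed by 0.03 ± 0.07 and was called in 0 of the 5 comparisons, although it was lower with IFNb in Adar-null cells with library size alone (adjusted p = 0.0368).

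The central protuberance held further changes of either sign. Mrpl38 had 56.2, 60.6 and 57.3 CPM in IFNb-treated Adar-null cells, 42.3, 38.8 and 36.01 CPM in vehicle-treated Adar-null cells, 37.7, 33.6 and 36.4 CPM in IFNb-treated control cells and 38.3, 38.6 and 38.8 CPM in vehicle-treated control cells. Its Adar-null libraries with IFNb lay above all others, with a response of 0.57 ± 0.08 in Adar-null cells (adjusted p = 1.81e-10, edgeR), -0.11 ± 0.09 in control cells, and an interaction of 0.68 ± 0.12 (adjusted p = 3.01e-07). Mrpl40 went the other way. Mrpl40 had 18.9, 21.9 and 21.7 CPM in IFNb-treated Adar-null cells, 23.6, 22.6 and 23.5 CPM in vehicle-treated Adar-null cells, 28.7, 27.03 and 35.2 CPM in IFNb-treated control cells and 23.7, 21.6 and 18.6 CPM in vehicle-treated control cells. Its control libraries with IFNb lay above all others, with a response of 0.50 ± 0.11 in control cells (adjusted p = 4.22e-05), -0.15 ± 0.12 in Adar-null cells and an interaction of -0.65 ± 0.16 (adjusted p = 0.00021). Mrpl48, a low-count member of the same region, fell in Adar-null cells (-0.73 ± 0.24, adjusted p = 0.00407) and did not pass in control cells (-0.39 ± 0.25). Mrpl42, another low-count large-subunit gene, did the same, at 2.63 ± 0.222 CPM in IFNb-treated Adar-null cells and 5.43 ± 1.62 CPM with vehicle (SD, n = 3 each; -1.06 ± 0.28, adjusted p = 0.000278), and -0.38 ± 0.26 in control cells.

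Mrpl33, Mrpl34 and Mrpl14, large-subunit proteins with bacterial counterparts, fell with IFNb in both genotypes. Mrpl33 had 17.6, 18.9 and 19.9 CPM in IFNb-treated Adar-null cells, 35.8, 36.9 and 29.8 CPM in vehicle-treated Adar-null cells, 19.4, 19.4 and 20.5 CPM in IFNb-treated control cells and 36.4, 37.4 and 27.6 CPM in vehicle-treated control cells. In each genotype the IFNb libraries lay below the vehicle libraries, and the genotypes overlapped under either treatment. The responses were -0.86 ± 0.11 in Adar-null (adjusted p = 8.05e-12, edgeR) and -0.78 ± 0.11 in control cells (adjusted p = 7.51e-10), with an interaction of -0.08 ± 0.16 that did not pass (adjusted p = 0.666). Mrpl34 had 10.6, 11.4 and 15.7 CPM in IFNb-treated Adar-null cells, 31.2, 27.1 and 22.997 CPM in vehicle-treated Adar-null cells, 18.5, 20.02 and 17.2 CPM in IFNb-treated control cells and 28.5, 23.9 and 27.6 CPM in vehicle-treated control cells. It fell in both genotypes and was lowest in Adar-null cells with IFNb, with responses of -1.10 ± 0.13 (adjusted p = 2.23e-13) and -0.52 ± 0.12 (adjusted p = 0.00011) and an interaction of -0.58 ± 0.18 (adjusted p = 0.00282). Mrpl14, a protein of the subunit interface, fell in both, with log2 changes of -0.95 ± 0.12 in Adar-null (adjusted p = 1.09e-12) and -0.45 ± 0.10 in control cells (adjusted p = 0.000125), and its interaction passed (-0.50 ± 0.16, adjusted p = 0.00366). Mrpl35 rose in both, by 0.68 ± 0.08 in Adar-null (adjusted p = 4.87e-12) and by 0.37 ± 0.09 in control cells (adjusted p = 0.000329). Mrpl36 also rose in both, by 0.46 ± 0.08 in Adar-null cells (adjusted p = 8.49e-08). Its call in control cells ended with library size alone (adjusted p = 0.104, edgeR) and without control vehicle replicate 2 (0.260). Its interaction did not pass, except with upper-quartile scaling (adjusted p = 0.0399, edgeR) or without control vehicle replicate 2 (0.00886).

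Of the mitochondria-specific large-subunit proteins, Mrpl44, which has a ribonuclease III-like fold, fell in control cells. Mrpl44 had 68.2, 72.9 and 81.001 CPM in IFNb-treated Adar-null cells, 74.9, 77.2 and 74.3 CPM in vehicle-treated Adar-null cells, 49.8, 53.9 and 53.6 CPM in IFNb-treated control cells and 70.1, 75.4 and 70.8 CPM in vehicle-treated control cells. The control libraries with IFNb lay below the other 9, which overlapped among groups. The response was -0.46 ± 0.07 in control cells (adjusted p = 1.79e-08, edgeR) and -0.03 ± 0.07 in Adar-null cells (adjusted p = 0.741), with an interaction of 0.43 ± 0.10 (adjusted p = 5.7e-05). Mrps30, whose product belongs to the large subunit despite its symbol, rose in Adar-null cells (0.27 ± 0.07, adjusted p = 0.000213) and did not pass in control cells (-0.05 ± 0.07); its interaction passed (0.32 ± 0.10, adjusted p = 0.00291). Mrpl37, a relative of Mrps30, was called in 0 of the 5 comparisons, although its interaction passed without Adar-null IFNb replicate 3 (adjusted p = 0.0446), and lay between 45.4 and 59.2 CPM in the 12 libraries. Mrpl41 was lower in Adar-null than in control cells with IFNb, at 13.8 ± 1.33 CPM and 18.98 ± 1.33 CPM (SD, n = 3 each; -0.46 ± 0.13, adjusted p = 0.00094).

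In the small subunit the largest rise was that of Mrps18b, one of 3 relatives of the bacterial protein S18 in mammals. Mrps18b had 28.2, 28.7 and 28.95 CPM in IFNb-treated Adar-null cells, 13.4, 7.73 and 11.2 CPM in vehicle-treated Adar-null cells, 14.6, 12.9 and 10.7 CPM in IFNb-treated control cells and 7.73, 8.58 and 10.3 CPM in vehicle-treated control cells. The Adar-null libraries with IFNb lay well above the other 9, and the control libraries with IFNb lay above those with vehicle. The response was 1.44 ± 0.14 in Adar-null cells, or 2.71-fold (adjusted p = 3.43e-18, edgeR), and 0.51 ± 0.17 in control cells (adjusted p = 0.00528), with an interaction of 0.92 ± 0.22 (adjusted p = 0.000126). An antisense gene, Gm16279, shares 59.1% of its exon bases, and reads of the 2 may not be told apart. Its relative Mrps18a, in the large subunit, had 41.7, 50.1 and 53.8 CPM in IFNb-treated Adar-null cells, 35.98, 33.8 and 37.4 CPM in vehicle-treated Adar-null cells, 35.8, 37.3 and 35.8 CPM in IFNb-treated control cells and 31.1, 31.005 and 36.1 CPM in vehicle-treated control cells. Its Adar-null libraries with IFNb lay above all others, with a response of 0.45 ± 0.09 in Adar-null (adjusted p = 1.56e-06) and 0.15 ± 0.09 in control cells, which did not pass. The third relative, Mrps18c, was between 1.25 and 4.96 CPM and was not called for IFNb over vehicle in either genotype, except in control cells without control IFNb replicate 2 (adjusted p = 0.0254). With IFNb it was higher in Adar-null than in control cells (0.66 ± 0.30, adjusted p = 0.0406), a call that ended without any 1 of Adar-null IFNb replicate 1, Adar-null IFNb replicate 2, control IFNb replicate 1 or control IFNb replicate 3 (adjusted p up to 0.271), and with library size alone or DESeq2 (adjusted p up to 0.0844).

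Mrps2, a core protein of the small subunit that has a bacterial counterpart, rose in both genotypes. Mrps2 had 92.8, 98.9 and 93.97 CPM in IFNb-treated Adar-null cells, 50.7, 59.6 and 56.2 CPM in vehicle-treated Adar-null cells, 78.9, 80.5 and 81.1 CPM in IFNb-treated control cells and 53.6, 52.8 and 58.9 CPM in vehicle-treated control cells. The Adar-null libraries with IFNb lay above the control libraries with IFNb, and these above both vehicle groups, which overlapped. The response was 0.77 ± 0.07 in Adar-null (adjusted p = 1.77e-20, edgeR) and 0.54 ± 0.07 in control cells (adjusted p = 1.68e-11), and with IFNb the genotypes differed by 0.25 ± 0.06 (adjusted p = 0.000183). Mrps7, of the head of the subunit, rose in Adar-null cells (0.45 ± 0.08, adjusted p = 1.87e-07) and was higher there than in control cells with IFNb (0.34 ± 0.08, adjusted p = 3.62e-05). Mrps7 was also called higher with IFNb in control cells, a call that ended in several alternative settings (adjusted p up to 0.157, edgeR). Its interaction did not pass, although it did in some alternative settings (adjusted p down to 0.0299, edgeR). Gga3, on the other strand, shares 127 exon bases with Mrps7. Gga3 rose with IFNb in Adar-null (0.71 ± 0.09) and control cells (0.59 ± 0.09). Mrps27, a pentatricopeptide repeat protein, rose by nearly equal amounts in Adar-null (0.50 ± 0.12, adjusted p = 8.7e-05) and control cells (0.51 ± 0.13, adjusted p = 0.000339), with an interaction of -0.02 ± 0.17.

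Further small-subunit genes are described by their responses. Mrps21, a small bacterial-type protein, had 3.41, 3.16 and 2.85 CPM in IFNb-treated Adar-null cells, 6.68, 8.97 and 7.31 CPM in vehicle-treated Adar-null cells, 6.41, 6.72 and 7.28 CPM in IFNb-treated control cells and 7.03, 10.1 and 9.57 CPM in vehicle-treated control cells. Its Adar-null libraries with IFNb lay below all others, at a low level, and the response was -1.30 ± 0.24 in Adar-null (adjusted p = 3.01e-07, edgeR) and -0.38 ± 0.19 in control cells (adjusted p = 0.0805), with an interaction of -0.92 ± 0.31 (adjusted p = 0.00625). The response in control cells passed without control vehicle replicate 1 (adjusted p = 0.0259) and with library size alone (adjusted p = 0.0339). Mrps15, a primary RNA-binding protein in bacteria, fell in Adar-null cells (-0.58 ± 0.12, adjusted p = 1.17e-05) and differed by 0.03 ± 0.11 in control cells, and its interaction passed (-0.60 ± 0.17, adjusted p = 0.00107). Mrps12, of the decoding centre, rose in control cells (0.41 ± 0.12, adjusted p = 0.00174) and differed by -0.01 ± 0.12 in Adar-null cells. Mrps28, a small-subunit protein, fell in control cells (-0.47 ± 0.16, adjusted p = 0.0103), a call that ended without control IFNb replicate 3 (adjusted p = 0.0598). Neither Mrps28 nor Mrps23 passed the interaction test. Mrps23 fell in control cells (-0.26 ± 0.07, adjusted p = 0.000935) and, with library size alone, in Adar-null cells too (adjusted p = 0.0063), and Mrps24 fell in both, with log2 changes of -0.37 ± 0.08 in Adar-null (adjusted p = 1.43e-05) and -0.33 ± 0.08 in control cells (adjusted p = 0.000149). Mrps5, Mrps22, Mrps34 and Mrps35 were called in 0 of the 5 comparisons. Mrps35 was called lower with IFNb in Adar-null cells without Adar-null IFNb replicate 3 (adjusted p = 0.0195, edgeR), without Adar-null vehicle replicate 1 (0.0287), with library size alone (0.00709) and with only the compared groups in the fit (0.0447). For Mrps22 and Mrps34 the interaction was -0.08 ± 0.15 and -0.10 ± 0.12, neither of which passed. Mrpl46 and Mrps11 start 42 bases apart on opposite strands of chromosome 7, at 78783089 and 78783131 of GRCm38. With IFNb in Adar-null cells the log2 change was 0.32 ± 0.13 for Mrpl46 and -0.11 ± 0.13 for Mrps11, and in control cells it was 0.30 ± 0.14 and 0.46 ± 0.13. The interaction was 0.02 ± 0.18 for Mrpl46 (adjusted p = 0.95, edgeR) and -0.57 ± 0.19 for Mrps11 (adjusted p = 0.00659), the second call ending without control IFNb replicate 3 (adjusted p = 0.0528).

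Some mitoribosomal proteins carry other symbols. Of 7 tested (Dap3, Ptcd3, Aurkaip1, Chchd1, Gadd45gip1, Ict1 and Mrp63), 1 rose and 3 fell with IFNb in Adar-null cells (57.1% called, against 72.3% of all genes), 2 rose and 3 fell in control cells (71.4%, against 53%), and with IFNb 1 was higher and 2 were lower in Adar-null than in control cells (42.9%, against 72.6%). Dap3, a GTP-binding protein of the small subunit, fell in Adar-null (-0.31 ± 0.07, adjusted p = 3.32e-05, edgeR) and control cells (-0.22 ± 0.07, adjusted p = 0.0031). Gadd45gip1, of the large subunit, rose in Adar-null (0.47 ± 0.08, adjusted p = 2.97e-08) and control cells (0.40 ± 0.08, adjusted p = 6.12e-06).

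A list of factors that assemble the mitoribosome or work with it moved more in one direction. The list also holds genes of mitochondrial transcription and messenger RNA, namely Tfam, Polrmt, Tfb2m, Lrpprc and Slirp, so its values are not those of assembly and translation factors alone. Of 36 listed, 34 were tested. With IFNb 20 were higher (58.8%, against 36.4% of all genes) and 6 lower (17.6%, against 36.2%) in Adar-null than in control cells, 76.5% against 72.6% in either direction, with a median log2 difference of 0.37, against 0.02 for all genes and 0.02 for the 74 mitoribosomal genes. In Adar-null cells 19 rose (55.9%, against 36.6% of all genes) and 7 fell (20.6%, against 35.7%) with IFNb, with a median of 0.23. In control cells 5 rose and 5 fell (14.7% each, against 26.5% of all genes each), with a median of -0.03. The interaction passed for 15 upwards (44.1%, against 28.6%) and 4 downwards (11.8%, against 30.7%), 55.9% against 59.3% in either direction, with a median of 0.31. Under vehicle 0 of the 34 were called by edgeR, against 6.51% of all genes. At an unadjusted p under 0.05 there was 1 of 34, against 2255 of all 11561 genes. Mrm1, a methyltransferase of the large ribosomal RNA, reached 35.1 ± 2.15 CPM in IFNb-treated Adar-null cells, against 13.5 ± 3.30 CPM with vehicle, and was at 13.5 ± 0.754 CPM in IFNb-treated control cells, against 11.95 ± 0.727 CPM with vehicle (SD, n = 3 each). Its interaction was 1.22 ± 0.19 (adjusted p = 2.45e-08). Rnmtl1, another such methyltransferase, rose in both genotypes, by 1.79 ± 0.14 in Adar-null (adjusted p = 1.87e-25) and by 1.36 ± 0.16 in control cells (adjusted p = 6.09e-14). Mterfd1, which acts in mitoribosome biogenesis, rose in Adar-null (0.70 ± 0.11, adjusted p = 6.29e-09) and fell in control cells (-0.58 ± 0.13, adjusted p = 5.71e-05). Mettl17, an assembly factor of the small subunit, was higher in Adar-null than in control cells with IFNb (1.05 ± 0.21, adjusted p = 2.01e-06). Among the lower factors were Ftsj2, a ribosomal RNA methyltransferase (-0.94 ± 0.19, adjusted p = 6.05e-06), and Rbfa, which helps to mature the small-subunit RNA (-0.85 ± 0.13, adjusted p = 1.26e-09).

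Exons of 25 of the 76 genes overlap those of another annotated gene, on the opposite strand for 20 and on the same strand for 5. Without these 25, 14 were higher and 12 lower of 49 tested between genotypes with IFNb (53.1% called, against 72.6% of all genes). With IFNb in Adar-null cells 12 rose and 13 fell (51.0%, against 72.3% of all genes), and in control cells 9 rose and 14 fell (46.9%, against 53%). The interaction passed for 8 upwards and 12 downwards (40.8%, against 59.3%). Mrpl18 shares only 17 exon bases (1.39%) with Tcp1, which encodes a subunit of the cytosolic chaperonin and lies on the opposite strand. Tcp1 fell with IFNb in Adar-null cells (-0.60 ± 0.06, adjusted p = 6.58e-23, edgeR) and did not pass in control cells (0.07 ± 0.06, adjusted p = 0.216), so both neighbours were lower with IFNb in Adar-null cells, Mrpl18 by more. Stability differed among comparisons: of the calls made, 29 of 42 between genotypes with IFNb, 30 of 40 in Adar-null cells, 23 of 36 in control cells and 18 of 29 interactions stood in each alternative setting run.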

How the data were processed

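RNA from 12 libraries of B16 cells was sequenced. Ribosomal RNA was removed from total RNA before directional paired-end libraries were made, per the labels' protocols. The submitters' processing notes name HTSeq 0.6.1p1, Bowtie2 2.2.4, Trimmomatic 0.33, bcl2fastq 2.19.1, DESeq2 and mm10; strand setting and annotation were not given in the sources used here. For 23336 gene symbols the authors deposited a raw read count in each library, without normalisation. An interferon-gamma arm is not analysed here.

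From the deposited counts, edgeR 4.0.16 (R 4.3.3) was run on all libraries with 1 term per group: filterByExpr by group, TMM scaling, glmQLFit with robust estimation and glmQLFTest, adjusted over 11561 genes within each comparison and called under 0.05. The common biological coefficient of variation was 0.0397. CPM are TMM-scaled counts per 1000000. Values after ± are SDs over 3 libraries for CPM and Wald standard errors, not below counting error, for log2 fold changes. No pair of replicates agreed within sampling noise (chi-square per degree of freedom 1.47 to 3.23). The alternatives were other scalings, no filter, Rn45s left out, a replicate block, only the compared groups, each library left out, limma-voom (limma 3.58.1) and DESeq2 1.42.0. Counts over members without exon overlap were added after the data were seen. Exon lengths and overlaps are from GENCODE M21 (GRCm38), promoters from RefSeq (GRCm38.p6).

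The members, gene lists and tests were chosen with earlier results of these data known. Genes were named by role, by the 4 highest and 4 lowest called changes per comparison, by opposite calls, by failing the filter, by the 3 highest and 3 lowest levels, and up to 4 per further list. Mrpl10, Mrpl14, Mrpl36, Mrpl46, Mrps11, Mrps24, Mrps35, Rnmtl1 and Rbfa were added after their values were seen.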

Additional observations from a re-analysis of the deposited data

Results flagged for a closer look

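The response to IFNb differed between Adar-null and control cells for 29 of the 74 tested genes by the interaction test (edgeR, adjusted over all 11561 genes; 59.3% of all genes passed). The values below are log2 responses of Adar-null cells minus those of control cells. A lower response in Adar-null cells was found for 16 genes. These were -1.97 for Mrpl18, -0.97 for Mrps25, -0.92 for Mrps21, -0.65 for Mrpl40, -0.60 for Mrps15, -0.58 for Mrpl34, -0.53 for Mrpl28, -0.50 for Mrpl14, -0.50 for Mrpl12 and -0.39 for Mrps9. The same held for Mrps11 at -0.57 ± 0.19, Mrpl11 at -0.53 ± 0.23, Mrpl41 at -0.45 ± 0.19, Mrps12 at -0.43 ± 0.17, Mrpl51 at -0.32 ± 0.13 and Mrpl50 at -0.29 ± 0.12. A higher response in Adar-null cells was found for 13 genes. These were 1.30 for Mrpl24, 0.92 for Mrps18b, 0.72 for Mrpl2, 0.71 for Mrpl9, 0.68 for Mrpl38, 0.43 for Mrpl44, 0.43 for Mrps17 and 0.32 for Mrps30. The others were Mrpl35 at 0.31 ± 0.12, Mrps18a at 0.30 ± 0.13, Mrpl3 at 0.30 ± 0.11, Mrpl13 at 0.25 ± 0.10 and Mrps2 at 0.23 ± 0.10. Mtbp, which shares 27.0% of the exon bases of Mrpl13 on the other strand, had an interaction of 0.46 ± 0.09 (adjusted p = 5.88e-06, edgeR). Reads of Mrpl13 and Mtbp over the shared bases may not be told apart.

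For 11 of the 29 genes the call ended in at least 1 alternative setting. It ended for Mrps11 without control IFNb replicate 3 (adjusted p = 0.0528), and for Mrpl3 without Adar-null vehicle replicate 1 (adjusted p = 0.0564), and with DESeq2 (adjusted p up to 0.0509). It ended for Mrpl50 without either control IFNb replicate 1 or control IFNb replicate 2 (adjusted p up to 0.098), and with DESeq2 (adjusted p up to 0.0683), and for Mrps2 without any 1 of Adar-null IFNb replicate 2, Adar-null vehicle replicate 1, control IFNb replicate 1 or control vehicle replicate 3 (adjusted p up to 0.138), and with DESeq2 (adjusted p up to 0.0749). For Mrpl13 it ended without any 1 of Adar-null IFNb replicate 2, Adar-null vehicle replicate 2, control IFNb replicate 1, control vehicle replicate 1 or control vehicle replicate 2 (adjusted p up to 0.118), and with DESeq2 (adjusted p up to 0.0739). Mrps12 lost its call without any 1 of Adar-null IFNb replicate 2, Adar-null vehicle replicate 2, control IFNb replicate 3, control vehicle replicate 1 or control vehicle replicate 3 (adjusted p up to 0.0905), and with DESeq2 (adjusted p up to 0.074). Mrpl35 lost it without any 1 of Adar-null IFNb replicate 1, Adar-null IFNb replicate 2, Adar-null vehicle replicate 1, control IFNb replicate 2, control vehicle replicate 1 or control vehicle replicate 2 (adjusted p up to 0.195), and with DESeq2 (adjusted p up to 0.0752), and Mrpl41 without any 1 of Adar-null IFNb replicate 3, Adar-null vehicle replicate 2, control IFNb replicate 1, control IFNb replicate 2, control vehicle replicate 2 or control vehicle replicate 3 (adjusted p up to 0.0812), and with DESeq2 (adjusted p up to 0.0902). For Mrps18a the call ended without any 1 of Adar-null IFNb replicate 2, Adar-null IFNb replicate 3, Adar-null vehicle replicate 2, control IFNb replicate 1, control IFNb replicate 3 or control vehicle replicate 3 (adjusted p up to 0.184), and with DESeq2 (adjusted p up to 0.0989). Mrpl11 was no longer called without any 1 of Adar-null IFNb replicate 1, Adar-null vehicle replicate 1, Adar-null vehicle replicate 3, control IFNb replicate 1, control vehicle replicate 2 or control vehicle replicate 3 (adjusted p up to 0.164), and with upper-quartile scaling or DESeq2 (adjusted p up to 0.0898). The same was true of Mrpl51 without any 1 of Adar-null IFNb replicate 1, Adar-null vehicle replicate 1, Adar-null vehicle replicate 2, control IFNb replicate 1, control IFNb replicate 3 or control vehicle replicate 3 (adjusted p up to 0.132), and with upper-quartile scaling or DESeq2 (adjusted p up to 0.0915).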

How the results depend on the processing

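Of the 322 recomputed summary values 301 stayed within 1.5 times the count, or within 0.0316 log2 (the spread between libraries) of the median, as reported. Some of these values had little room to move, since a library left out could lie outside the groups compared. The count of higher genes under vehicle was 0 in each setting. No direction of a called gene was reversed in any setting for the 116 genes followed. Under vehicle the count of lower genes was 0 with DESeq2 and 0 to 1 with each library left out. Between genotypes with IFNb the median was 0.0559 with upper-quartile scaling and -0.0496 to 0.0471 with each library left out. With IFNb in Adar-null cells the median was -0.11 with library size alone and -0.0682 to 0.0119 with each library left out, and 13 to 20 genes were higher, the lowest without Adar-null IFNb replicate 3. Without that library 8025 of all genes were called in either direction, against 8364 with it. With IFNb in control cells the median was -0.0608 with library size alone. For the interaction the median was -0.0615 to 0.0586 with each library left out. With DESeq2 the interaction passed for 8 genes upwards and 11 downwards, against 13 and 16 with edgeR. Of all 11561 genes 6015 passed with DESeq2, against 6855 with edgeR. With library size alone the median of all genes was -0.08 in both responses, against 0.012 in Adar-null and -0.0049 in control cells with TMM. Restricting to the 49 tested genes without exon overlap, chosen after seeing the data, counted fewer genes, and the shares called moved too. It left 14 higher and 12 lower between genotypes with IFNb (53.1% called, against 56.8% of the 74 and 72.6% of all genes). With IFNb in Adar-null cells it left 12 higher and 13 lower (51.0%, against 54.1% of the 74 and 72.3% of all genes). In control cells 9 were higher (18.4%, against 23.0% of the 74 and 26.5% of all genes). In the interaction 8 were higher (16.3%, against 17.6% of the 74 and 28.6% of all genes). There the share called in either direction was 40.8%, against 39.2% of the 74. The cause of these and the other shifts was not tested. With the replicate block 21 genes were higher and 19 lower between genotypes with IFNb, where 8347 of all genes were called, against 8388 without the block. The other counts stayed as reported. Same-numbered libraries correlated at -0.0942 to 0.0546 in their deviations from group means, and libraries of different number at -0.109 to 0.0999. Of the 12 libraries 4 correlated best with their own number. These deviations also hold counting noise, so the correlations cannot decide whether the numbers pair libraries. DESeq2 called 324 genes in all under vehicle, against 753 with edgeR. At this depth Mrpl23 and Mrps36 could not be tested, and for genes with few counts small changes are not resolved: the response in Adar-null cells has a standard error of 0.24 for Mrps21, against 0.07 for Mrpl9.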

Other observations

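Mrpl28, a large-subunit protein with a bacterial counterpart, fell with IFNb, with log2 changes of -0.72 ± 0.08 in Adar-null cells (adjusted p = 6.2e-14, edgeR) and -0.19 ± 0.07 in control cells (adjusted p = 0.0296). The call in control cells ended without any 1 of control IFNb replicate 2, control IFNb replicate 3, control vehicle replicate 1 or control vehicle replicate 2 (adjusted p up to 0.195), and with DESeq2 (adjusted p up to 0.0996). Mrps26, which is specific to mitochondria, fell in Adar-null (-0.60 ± 0.11, adjusted p = 1.05e-06) and in control cells (-0.45 ± 0.10, adjusted p = 0.000134). Mrps9, which has a bacterial counterpart, fell in Adar-null cells (-0.63 ± 0.09, adjusted p = 5.77e-10) and in control cells (-0.25 ± 0.09, adjusted p = 0.0127), where the call ended without either control IFNb replicate 2 or control vehicle replicate 1 (adjusted p up to 0.111), and with DESeq2 (adjusted p up to 0.0507). Mrps17, of the body of the small subunit, was at 36.7 ± 4.93 CPM in IFNb-treated Adar-null cells and 27.3 ± 2.30 CPM in IFNb-treated control cells (SD, n = 3 each), a log2 difference of 0.42 ± 0.10 (adjusted p = 7.2e-05). Mrpl49 and Mrpl51 were lower in Adar-null than in control cells with IFNb, with log2 differences of -0.40 ± 0.10 (adjusted p = 0.000108) and -0.49 ± 0.09 (adjusted p = 2.27e-06). These genes were chosen after their values were seen.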
